A study of Mus musculus with 2 samples.

Results

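The 36 genes described here encode the machinery with which a cell makes cholesterol and fatty acids, together with the proteins that control it. They were listed by name and divided by role into 7 regulators of the SREBP pathway, 8 enzymes of the mevalonate and isoprenoid steps, 12 enzymes from squalene to cholesterol, 2 genes of sterol transport and esterification, and 7 genes of fatty acid synthesis. All 36 were found among the 55536 annotated genes of the deposited tables, of which 22015 were nuclear-encoded and protein-coding. RNA came from the cytosolic fraction of primary macrophages grown from bone marrow of C57BL/6J mice, whose sex and age the labels give as not collected. Every cell preparation had been stimulated for 75 minutes with 100 ng/ml lipid A, the lipid anchor of lipopolysaccharide from bacterial membranes and a ligand of Toll-like receptor 4. The RNA was depleted of ribosomal RNA and sequenced as total RNA. There was 1 group of 2 libraries, called replicate 1 and replicate 2 as in the labels, and no unstimulated group was analysed here. The values therefore describe stimulated cells and give no effect of lipid A.

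Cholesterol is built from acetyl-CoA through mevalonate, isoprenoid pyrophosphates, squalene and lanosterol, and fatty acids are built from the same acetyl-CoA through malonyl-CoA. Both routes are controlled by the sterol regulatory element-binding proteins (SREBPs), transcription factors made as membrane proteins of the endoplasmic reticulum. When sterols are scarce, SCAP carries them to the Golgi, where the site-1 and site-2 proteases free the active part, and when sterols are plentiful INSIG proteins hold SCAP and its cargo back. In macrophages the pathway is balanced against cholesterol taken up from lipoproteins and dying cells, which is stored as esters or exported through transporters induced by the liver X receptors (LXRs).

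The libraries held 55596625 (replicate 1) and 50157146 (replicate 2) expected counts over annotated genes. Levels are given as deposited TPM values, transcript copies scaled to a sum of 1000000 per library, which correct for length and can be set side by side between genes. The share of TPM in the cytoplasmic 7SL RNAs was 69.8% and 60.5%, and in nuclear-encoded protein-coding genes it was 21.6% and 21.9%, so a value of 1 TPM here stands for a larger share of messenger RNA than the number implies. All 7 macrophage markers exceeded 1 TPM, whereas none of 4 adipocyte and none of 4 hepatocyte markers did, the hepatocyte markers being listed at 0 in both libraries. Of 4 neutrophil markers 3 exceeded 1 TPM, with S100a9 at 17.1 and 17.4 TPM and the granule protease Elane at 0.0900 and 0.0800 TPM. The libraries were not alike in every respect: 6 of 7 macrophage markers were higher in replicate 2 after scaling (Csf1r 142 and 205 TPM, Lyz2 as the exception 4227 and 4111 TPM), and the nuclear RNA Malat1 had 158 TPM in replicate 1 and 799 TPM in replicate 2. Both libraries carry 1 donor identifier in the labels, which do not state if separate animals or cultures were used, and the spread over n = 2 may be technical. Fewer cells carrying an RNA and less of that RNA per cell cannot be told apart in such bulk samples.

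Nearly the whole pathway was present in the stimulated macrophages. A mean of 1 TPM was reached by 35 of the 36 genes, against 39.3% of all nuclear protein-coding genes, and the exception was the fatty acid elongase Elovl6. The members' median level was 5.42 TPM, beside a median of 6.12 TPM over the 8644 protein-coding genes that reached 1 TPM. Soat1 alone exceeded 100 TPM, 10 members had 10 TPM or more with Soat1 among them, and 25 lay between 1 and 10 TPM. The members together summed to 454 TPM in replicate 1 and 469 TPM in replicate 2, of which Soat1 supplied 26.1% and 32.2%. Counts per member and library ran from 206 to 38684, and the deposited posterior SD, which measures how uncertainly reads were divided among genes, was at most 2.62% of a member's count. The plot of levels by role shows that each role spans at least several-fold, with 1 to 3 abundant members above a group of genes at a few TPM.

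**Figure D1:**
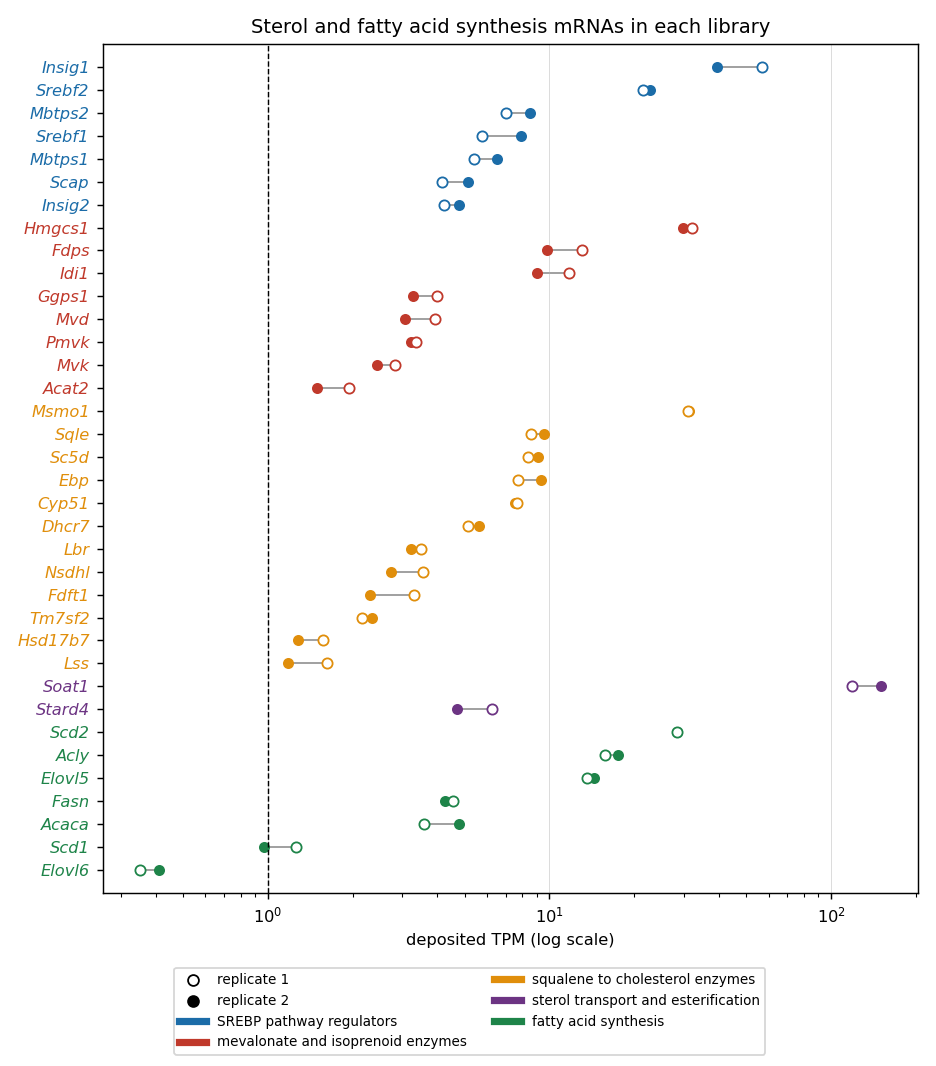
Deposited TPM of the 36 genes on a log axis, coloured by role and ordered by mean within a role; open circles are replicate 1, filled circles replicate 2, and the dashed line marks 1 TPM. Soat1 stands at 118 and 151 TPM and Elovl6 at 0.350 and 0.410 TPM, and for most genes the 2 circles lie close together relative to the distances between genes.

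Among the regulators, Insig1 was the most abundant messenger. Insig1, the sterol-responsive anchor that keeps SCAP in the endoplasmic reticulum, had 57.0 TPM in replicate 1 and 39.4 TPM in replicate 2 (48.2 ± 12.4, SD, n = 2). Its relative Insig2, which serves the same purpose, had 4.23 and 4.78 TPM (4.51 ± 0.389). Insig1 therefore exceeded Insig2 by 13.5-fold in replicate 1 and by 8.25-fold in replicate 2, and the ranges of the 2 genes were far apart. Srebf2, which encodes SREBP-2, the form known mainly for driving cholesterol synthesis, had 21.5 and 22.8 TPM (22.2 ± 0.919). Srebf1, which encodes the SREBP-1 forms known for driving fatty acid synthesis, had 5.78 and 7.93 TPM (6.86 ± 1.52). The Srebf2 level was thus 3.72-fold that of Srebf1 in replicate 1 and 2.88-fold in replicate 2. These gene levels include other forms: the leading coding transcripts alone had 16.6 and 18.5 TPM for Srebf2 and 4.93 and 5.83 TPM for Srebf1. The escort Scap had 4.14 and 5.15 TPM, the site-1 protease Mbtps1 5.38 and 6.52 TPM, and the site-2 protease Mbtps2 6.98 and 8.50 TPM. Of the Mbtps2 level, 1.36 and 2.66 TPM lay in the 529-base transcript Mbtps2-206, while the leading Mbtps2-201 had 5.25 and 5.32 TPM. These processing factors lay below Srebf2 and Insig1 in both libraries.

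Srebf1 (chromosome 11, 60199089 to 60222581, minus strand, mm10) has alternative first exons that give SREBP-1a, the form with the longer activation domain, and SREBP-1c, the form known as the main one in liver. Transcripts that start at the upstream first exons, led by the SREBP-1a transcript Srebf1-201 with its start at 60220604, held 92.8% of the gene's expected count in replicate 1 and 88.0% in replicate 2 (90.4% ± 3.38). Transcripts from the downstream first exon, led by the SREBP-1c transcript Srebf1-207 with its start at 60210465, held 2.93% and 2.51% (2.72% ± 0.296), which were 74.0 and 66.4 counts. The rest, 4.29% and 9.48%, was assigned to 8 transcripts that start within the gene. The division among transcripts is less certain than the gene's total, since the deposited posterior SD of Srebf1-207 was 27.2% of its count in replicate 1 and 28.9% in replicate 2. In the second deposited quantification the upstream share was 85.6% and the downstream share 9.60%, so the upstream class held most of the count in both quantifications. The promoters at these starts are shown for comparison, because they are the DNA from which the more and the less represented Srebf1 messengers begin. Both are from RefSeq (GRCm38.p6, the mm10 build), minus strand, written 5′ to 3′ and ending at the base before the RefSeq start. The upstream one is chr11:60220628-60220777 and the downstream one chr11:60210472-60210621. Capitals mark the letters CCAAT (the box bound by NF-Y) or GGGCGG (the box bound by Sp1) on either strand.
Srebf1 upstream start: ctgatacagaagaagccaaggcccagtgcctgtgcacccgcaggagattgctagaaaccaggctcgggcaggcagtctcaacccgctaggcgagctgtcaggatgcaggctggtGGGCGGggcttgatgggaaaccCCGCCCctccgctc
Srebf1 downstream start: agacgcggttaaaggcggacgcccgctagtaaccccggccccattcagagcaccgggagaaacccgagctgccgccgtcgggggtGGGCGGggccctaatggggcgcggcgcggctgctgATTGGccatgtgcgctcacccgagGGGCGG
The upstream stretch holds the Sp1 letters at 36 and 14 bases before the start and no CCAAT, and the downstream stretch holds CCAAT at 30 bases and the Sp1 letters at 65 and 6 bases before the start. Neither stretch holds the sterol regulatory element letters TCACNCCAC, which says only that these letters are not in these windows.

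The 8 genes of the mevalonate and isoprenoid steps were all above 1 TPM, from 1.72 to 31.0 TPM. Hmgcs1, the cytosolic HMG-CoA synthase that commits acetyl units to the pathway, was the highest, with 32.04 TPM in replicate 1 and 29.9 TPM in replicate 2 (31.0 ± 1.53). Fdps, which makes farnesyl pyrophosphate, had 13.0 and 9.78 TPM (11.4 ± 2.30). Idi1, the isomerase that supplies dimethylallyl pyrophosphate, had 11.7 and 9.01 TPM (10.4 ± 1.92). These 3 enzymes stood above the other 5 in both libraries. The remaining enzymes were the geranylgeranyl pyrophosphate synthase Ggps1 (3.97 and 3.28 TPM), the decarboxylase Mvd (3.93 and 3.06 TPM), the phosphomevalonate kinase Pmvk (3.35 and 3.23 TPM) and the mevalonate kinase Mvk (2.83 and 2.44 TPM). Acat2, the cytosolic thiolase that joins acetyl-CoA units at the head of the route, was the lowest at 1.94 and 1.49 TPM. Hmgcs1 exceeded Mvk by 11.3-fold in replicate 1 and 12.2-fold in replicate 2. Each of the 8 genes was lower in replicate 2 than in replicate 1 by TPM, a difference taken up below with the other members.

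The promoters of Hmgcs1, Mvk and Insig1 show the letters that the search over member promoters turned on, and they come from genes at 31.0, 2.64 and 48.2 TPM. They are RefSeq sequences of GRCm38.p6 on the plus strand, 5′ to 3′, ending at the base before the RefSeq start: chr13:119690101-119690350 for Hmgcs1, chr5:114444069-114444268 for Mvk and chr5:28071162-28071411 for Insig1. Capitals mark the sterol regulatory element TCACNCCAC and CCAAT boxes in Hmgcs1, CCAAT boxes in Mvk, and the CCAAT box and the E-box CACGTG in Insig1, each on either strand, so that CCAAT on the opposite strand reads ATTGG.
Hmgcs1: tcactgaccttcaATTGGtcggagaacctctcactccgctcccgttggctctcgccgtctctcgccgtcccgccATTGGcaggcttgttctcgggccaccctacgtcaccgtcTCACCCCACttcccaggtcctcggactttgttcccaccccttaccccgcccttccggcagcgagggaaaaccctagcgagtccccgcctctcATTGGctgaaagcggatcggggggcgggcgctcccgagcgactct
Mvk: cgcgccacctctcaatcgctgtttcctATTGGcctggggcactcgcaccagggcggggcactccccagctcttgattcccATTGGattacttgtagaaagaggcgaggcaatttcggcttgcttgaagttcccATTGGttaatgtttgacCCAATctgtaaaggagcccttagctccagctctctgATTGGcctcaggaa
Insig1: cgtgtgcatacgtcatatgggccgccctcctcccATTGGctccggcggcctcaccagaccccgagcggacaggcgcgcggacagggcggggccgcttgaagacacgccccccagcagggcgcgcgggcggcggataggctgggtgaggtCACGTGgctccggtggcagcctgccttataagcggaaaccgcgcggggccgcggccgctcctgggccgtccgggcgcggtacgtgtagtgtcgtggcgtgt
In Hmgcs1 the sterol element begins 137 bases before the start, with CCAAT boxes at 237, 176 and 45 bases. In Mvk 5 CCAAT boxes lie at 173, 120, 67, 50 and 14 bases before the start. In Insig1 the CCAAT box lies at 216 bases before the start and the E-box between it and the start.

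RefSeq promoters, each reaching from 250 bases before to 50 bases after a start, were matched for 30 of the 36 members, with 38 windows, and for 17492 protein-coding genes in all. Fdft1, Fdps, Scd1, Scd2, Sqle and Stard4 had no entry. The full sterol element TCACNCCAC was found on either strand in 1 member (3.33%), Hmgcs1, against 1.41% of all genes. Its shorter core CACNCCAC, a choice made after the first count was seen and contained in the full element, was found in 3 members (10%), Acat2, Hmgcs1 and Insig1, against 7.26% of all genes. CCAAT occurred in 24 members (80.0%) against 42.3% of all genes, and at least 2 copies in 14 members against 14.6% of all genes. GGGCGG occurred in 23 members (76.7%) against 49.2%, and CACGTG in 6 members (20.0%) against 8.91%. By role, CCAAT was present in 10 of 10 matched enzymes from squalene to cholesterol, 6 of 7 mevalonate enzymes, 4 of 7 regulators and 3 of 5 fatty acid genes. GGGCGG was present in the same 10 of 10 squalene-to-cholesterol enzymes but in 1 of 5 fatty acid genes, Acly. The windows of all RefSeq starts of a gene were counted, whether or not the start was used in these cells. For example, the CCAAT of Insig2 lies by the start of Insig2-202, listed at 0 counts, and that of Pmvk by Pmvk-204, with 0 and 55.1 counts. In Soat1 and Dhcr7, CCAAT lies by a start other than that of the leading transcript, and the main upstream start of Srebf1 has none. These are matches of letters, not measured binding, and members had 1.27 windows per gene against 1.22 over all genes. The genes used for comparison were not limited to those detected here, whereas 35 of the 36 members were detected. How often the letters occur in detected genes alone was not tested, so the higher shares cannot be assigned to the pathway.

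The 12 enzymes from squalene to cholesterol all exceeded 1 TPM, and 1 of them stood well above the rest. Msmo1, the methyl sterol oxidase that begins removal of the C4 methyl groups, had 31.1 TPM in replicate 1 and 31.3 TPM in replicate 2 (31.2 ± 0.170). A group of 4 followed between about 7 and 10 TPM. Sqle, the squalene epoxidase that is a control point of the pathway, had 8.58 and 9.55 TPM, the desaturase Sc5d 8.39 and 9.11 TPM, the sterol isomerase Ebp 7.70 and 9.36 TPM and the lanosterol demethylase Cyp51 7.64 and 7.53 TPM. The ranges of Sqle, Sc5d and Ebp over the 2 libraries overlapped, so no order among them is given, and that of Cyp51 lay just below. Dhcr7, which reduces 7-dehydrocholesterol to cholesterol, had 5.12 and 5.62 TPM. The squalene synthase Fdft1 had 3.29 and 2.31 TPM and the C4 decarboxylase Nsdhl 3.54 and 2.74 TPM. Of the genes whose products can both reduce the C14 double bond, Lbr had 3.50 and 3.22 TPM and Tm7sf2 2.16 and 2.34 TPM. The ketoreductase Hsd17b7 had 1.57 and 1.28 TPM. Lss, the lanosterol synthase that closes the sterol rings, was the lowest by mean with 1.62 and 1.18 TPM (1.40 ± 0.311), and its range overlapped that of Hsd17b7. Msmo1 exceeded Lss by 19.2-fold in replicate 1 and 26.5-fold in replicate 2.

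Soat1, which esterifies cholesterol for storage in lipid droplets, was the most abundant of the 36 genes. It had 118 TPM in replicate 1 and 151 TPM in replicate 2 (135 ± 23.1), on 37077 and 38684 counts, and ranked 238 among nuclear protein-coding genes by mean TPM. Its relative Soat2, known from intestine and liver, had 0.0400 and 0.0200 TPM on 8 and 3 counts. Stard4, a soluble sterol carrier, had 6.23 and 4.69 TPM (5.46 ± 1.09). Storage by esterification was therefore represented by a messenger above every synthesis enzyme in both libraries, the nearest enzyme being Hmgcs1 or Msmo1 at 29.9 to 32.04 TPM.

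The fatty acid genes covered a wide range. Scd2, a stearoyl-CoA desaturase, was the highest, with 28.4 TPM in replicate 1 and 28.5 TPM in replicate 2, whereas its relative Scd1 had 1.26 and 0.970 TPM, a difference of 22.5-fold and 29.3-fold. Acly, which makes cytosolic acetyl-CoA from citrate, had 15.8 and 17.6 TPM (16.7 ± 1.28). The enzymes of chain synthesis itself were lower: the fatty acid synthase Fasn had 4.55 and 4.27 TPM, and the acetyl-CoA carboxylase Acaca 3.59 and 4.79 TPM. Elovl5, an elongase of polyunsaturated chains, had 13.6 and 14.4 TPM (14.0 ± 0.573). Elovl6, the elongase of saturated chains, had 0.350 and 0.410 TPM (0.380 ± 0.0424) on 226 and 206 counts, so Elovl5 exceeded it by 38.9-fold and 35.1-fold. The paired relatives Scd2 and Scd1, Elovl5 and Elovl6, Soat1 and Soat2, and Insig1 and Insig2 thus differed in level by more than the spread between libraries in every case.

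Most members were represented by 1 transcript. Over the 230 annotated transcripts of the 36 genes, the leading one, taken as the one with the highest mean TPM, was protein-coding in 36 of 36 genes and held a median of 94.7% of the gene's expected count. It held over 90% in 24 genes, between 60% and 90% in 8 and under 60% in 4, namely Sc5d, Fasn, Soat1 and Acly. The 4 genes divided their counts in different ways. The short Soat1-201 (2925 bases) held 53.1% and 55.1% of the Soat1 count and Soat1-207 (8371 bases) 44.8% and 42.6%, which differ at both ends of the gene: their starts lie at 156466804 and 156474331 on the minus strand of chromosome 1, and Soat1-207 extends further downstream, to 156424525 against 156429793. Sc5d-201 (4787 bases) held 56.8% and 59.0% of its gene and the shorter Sc5d-202 (1677 bases) 43.1% and 40.9%, and the shorter one led per length. In the second quantification their order by count was reversed, with 42.9% and 45.1% for Sc5d-201 and 56.9% and 54.7% for Sc5d-202. Fasn-205 held 55.0% and 48.8%, and Fasn-201 41.6% and 50.1%, and the deposited posterior SDs in replicate 2, 6.55% and 6.34% of the counts, leave their order there unresolved. Acly-203 held 53.8% and 56.5% and Acly-207, with a separate downstream start, 37.9% and 43.3%. Some RNA of synthesis enzymes was assigned to forms not annotated as coding. Msmo1-206, a processed transcript, held 24.1% and 25.2% of the Msmo1 count, and Lss-204, annotated with a retained intron, 19.6% and 17.0% of the Lss count. The second deposited quantification divided several other genes differently as well: Lss-204 then held 15.4% and 8.03%, Soat1-201 63.8% and 65.0%, Fasn-205 77.9% and 70.9%, Msmo1-206 10.9% and 11.5%, and Acly-207 11.9% and 14.2%.

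**Figure D2:**
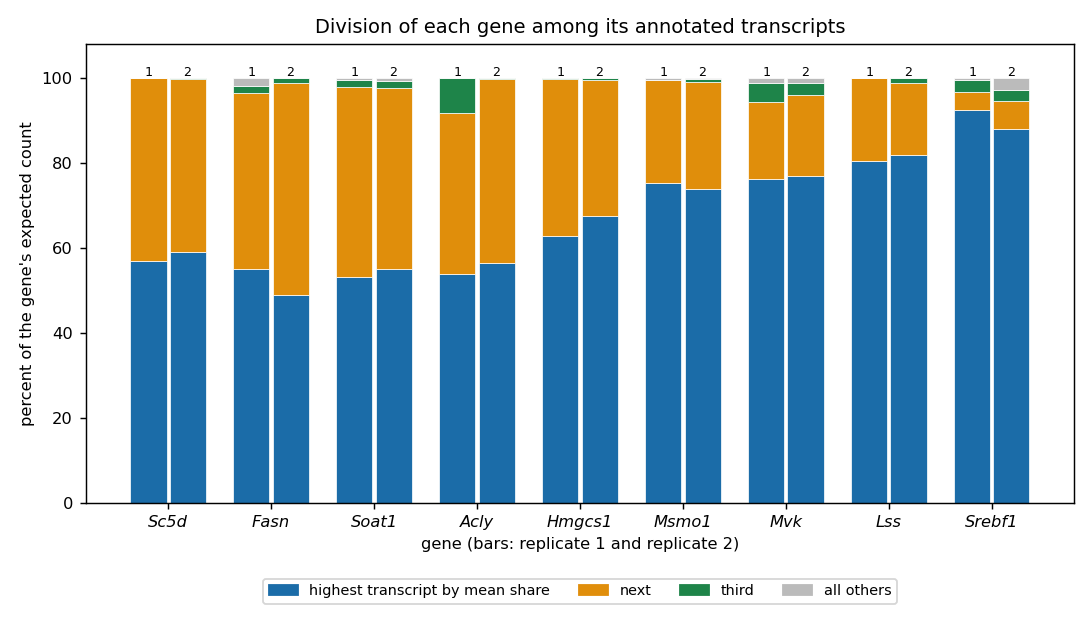
Share of a gene's expected count in its annotated transcripts for 9 members, as stacked bars from 0 to 100%; the left bar of each pair is replicate 1 and the right bar replicate 2, and colours give the rank of the transcript by mean share. The highest transcript holds 53.1% and 55.1% of Soat1 and 92.5% and 88.0% of Srebf1, and the pairs of bars differ most in Fasn and Acly.

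The 2 libraries were then compared gene by gene. The ratio of replicate 2 to replicate 1 was formed from expected counts scaled by the trimmed mean of M values (TMM), for the 9686 nuclear protein-coding genes with a mean of 100 counts or more, which include all 36 members. With 1 library on each side no test exists, and the intervals given are 95% counting intervals that leave out variation between preparations. No member differed by more than 2-fold, as 0.496% of all these genes did. The members' median log2 ratio was -0.05, and that of all genes -0.03, with 10% of all genes below -0.28 and 10% above 0.31. A ratio below 1 was found for 21 members, against 55.1% of all genes. The counting interval lay wholly below 1 for 16 members (31.0% of all genes) and wholly above 1 for 10 (25.4% of all genes). The centre of the members thus lay close to that of all genes, and their spread was toward lower values: 10 of the 36 lay among the lowest 5% of ratios, a class that holds 5.01% of all genes, and 11 lay below the 10th percentile of all genes and none above the 90th. More than 1.5-fold lower in replicate 2 were 2 members, Insig1 and Scd1, against 1.17% of all genes, and none was more than 1.5-fold higher, against 2.21%.

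**Figure D3:**
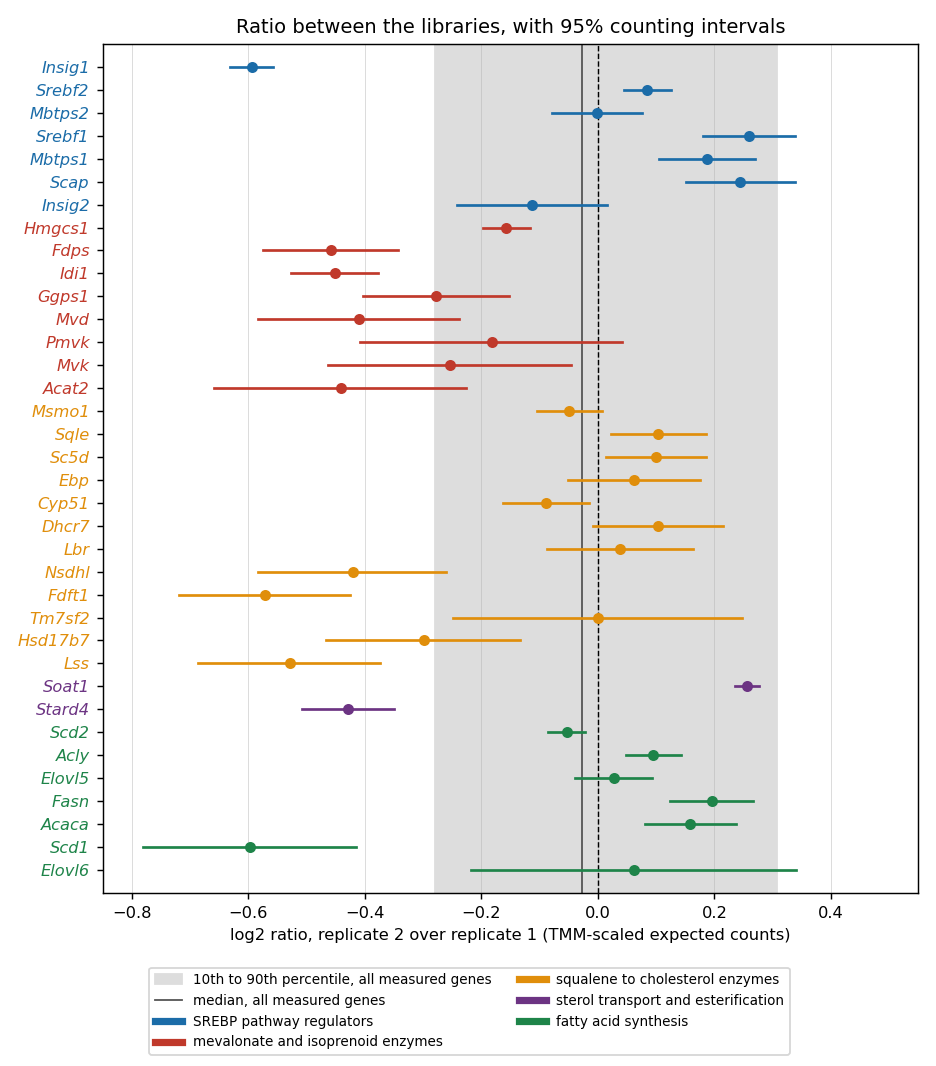
Log2 ratio of replicate 2 to replicate 1 for the 36 genes from TMM-scaled expected counts, with bars for 95% counting intervals, coloured by role; the grey band spans the 10th to the 90th percentile of 9686 protein-coding genes and the solid line is their median. Of the 11 genes left of the band 4 are mevalonate enzymes and 4 are squalene-to-cholesterol enzymes, and none lies to the right of it.

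Of the roles, the mevalonate and isoprenoid enzymes had the lowest list median. All 8 had a ratio below 1, with a median log2 ratio of -0.34, and the interval excluded 1 for 7 of them, Pmvk being the exception (-0.18). Fdps was 1.37-fold lower in replicate 2 (counting interval 1.27 to 1.49), Idi1 1.37-fold (1.30 to 1.44), Acat2 1.36-fold (1.17 to 1.58) and Mvd 1.33-fold (1.18 to 1.5). Hmgcs1, the most abundant of them, differed least, by 1.11-fold (1.08 to 1.15). All 8 lay below the median of all genes with TMM, with deposited TPM and in the second quantification of the same libraries. DESeq2 size factors shift every ratio by the same amount, so they cannot change this count.

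The 12 enzymes from squalene to cholesterol were split. Fdft1 was 1.49-fold lower in replicate 2 (1.34 to 1.65), Lss 1.44-fold (1.30 to 1.61), Nsdhl 1.34-fold (1.20 to 1.5) and Hsd17b7 1.23-fold (1.10 to 1.38). The other 8 lay between -0.09 (Cyp51) and 0.10 (Sqle) on the log2 scale. Their list median was -0.02, and no enzyme of the list lay between Hsd17b7 (-0.30) and Cyp51 in the plot of ratios. Against the median of all genes, 6 of the 12 lay lower with TMM, and 7 with deposited TPM and in the second quantification. The count with DESeq2 size factors is necessarily that of TMM.

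The regulators had a median log2 ratio of 0.08, and Insig1 stood apart from the rest. Insig1 was 1.51-fold lower in replicate 2 (1.47 to 1.55), on 16318 and 9447 counts, and only 1.13% of all genes had a lower ratio. Srebf1 (0.26), Scap (0.24), Mbtps1 (0.19) and Srebf2 (0.08) were higher in replicate 2 with intervals above 1. The intervals of Insig2 (-0.11) and Mbtps2 (0.00) held 1. Of the transport and storage pair, Stard4 was 1.35-fold lower in replicate 2 (1.27 to 1.42) and Soat1 1.19-fold higher (1.18 to 1.21). Among the fatty acid genes Scd1 was 1.51-fold lower (1.33 to 1.72), on 677 and 391 counts, while Scd2 differed by 1.04-fold (1.02 to 1.06). Fasn (0.20), Acaca (0.16) and Acly (0.10) were higher in replicate 2 by scaled counts, and for Fasn the deposited TPM was lower there, with a log2 ratio of -0.09. By deposited TPM no member was 1.5-fold lower in replicate 2, Insig1 then having a log2 ratio of -0.53 and Scd1 one of -0.38. Whether the differences in macrophage markers and in Malat1 between the same libraries play a part in these ratios was not tested.

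Genes around the pathway were read from 4 further lists. The 14 partners of SREBP transport and of INSIG-linked degradation, such as the COPII coat proteins that form vesicles for SCAP, all exceeded 1 TPM, with a median of 8.28 TPM and a median log2 ratio of 0.00. High among them were the membrane protein Pgrmc1 (18.01 and 18.38 TPM) and the COPII GTPases Sar1a (17.1 and 17.4 TPM) and Sar1b (13.6 and 13.9 TPM). Each of these 3 was above Scap itself. None of the 14 was 1.5-fold different between the libraries. Of all genes 1.17% were over 1.5-fold lower in replicate 2 and 2.21% over 1.5-fold higher. These shares are too small for the absence to set the list apart.

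Among 15 other isoprenoid and oxysterol genes, 10 were detected and the median was 2.51 TPM. Nus1, a subunit of the enzyme that makes dolichol precursors, led with 16.4 and 16.3 TPM, followed by the sterol 27-hydroxylase Cyp27a1 (9.00 and 11.5 TPM), the Rab prenylation subunit Rabggtb (7.26 and 6.57 TPM) and the farnesyltransferase subunit Fnta (5.96 and 5.66 TPM). With a mean below 1 TPM were, among others, the ubiquinone side-chain synthases Pdss1 (0.680 and 0.870 TPM) and Pdss2 (1.08 and 0.790 TPM), Soat2, and the oxysterol hydroxylase Cyp7b1, listed at 0. Among 22 other fatty acid genes, 15 were detected and the median was 4.76 TPM. The leading ones act in elongation and desaturation: the reductase Tecr (24.1 and 27.5 TPM), the ketoreductase Hsd17b12 (22.6 and 27.8 TPM), the elongase Elovl1 (18.3 and 24.2 TPM) and the desaturase Fads1 (15.04 and 13.89 TPM).

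The genes of cholesterol export and LXR control are the counterpart of synthesis. All 11 exceeded 1 TPM, with a median of 29.1 TPM. The apolipoprotein Apoe had 1218 and 2133 TPM, the lysosomal sterol carrier Npc2 176 and 183 TPM, the cholesterol exporter Abca1 98.1 and 142 TPM and the cholesteryl ester hydrolase Nceh1 60.8 and 72.4 TPM. Their median log2 ratio was 0.30, the counting interval lay above 1 for 7 of the 11 (25.4% of all genes), and 2 were over 1.5-fold higher in replicate 2 (2.21% of all genes), Apoe and Npc1. Mylip, the LXR-induced ubiquitin ligase, was the 1 member with an interval below 1, at 18.9 and 15.2 TPM; it and Npc1 (41.3 and 65.5 TPM) are named after their values were seen. The macrophage markers had a median log2 ratio of 0.44 in the same libraries, with the interval above 1 for 6 of 7. Their part in the ratios of the LXR and efflux genes was not tested. The mevalonate list median of -0.34 and the LXR and efflux list median of 0.30 stand 1 on each side of the all-gene median of -0.03. Both differences have the same sign with TMM, with deposited TPM and in the second quantification, all from the same 2 libraries. DESeq2 size factors shift every gene alike and cannot change these differences. A single pair of libraries gives no test of either difference.

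**Figure D4:**
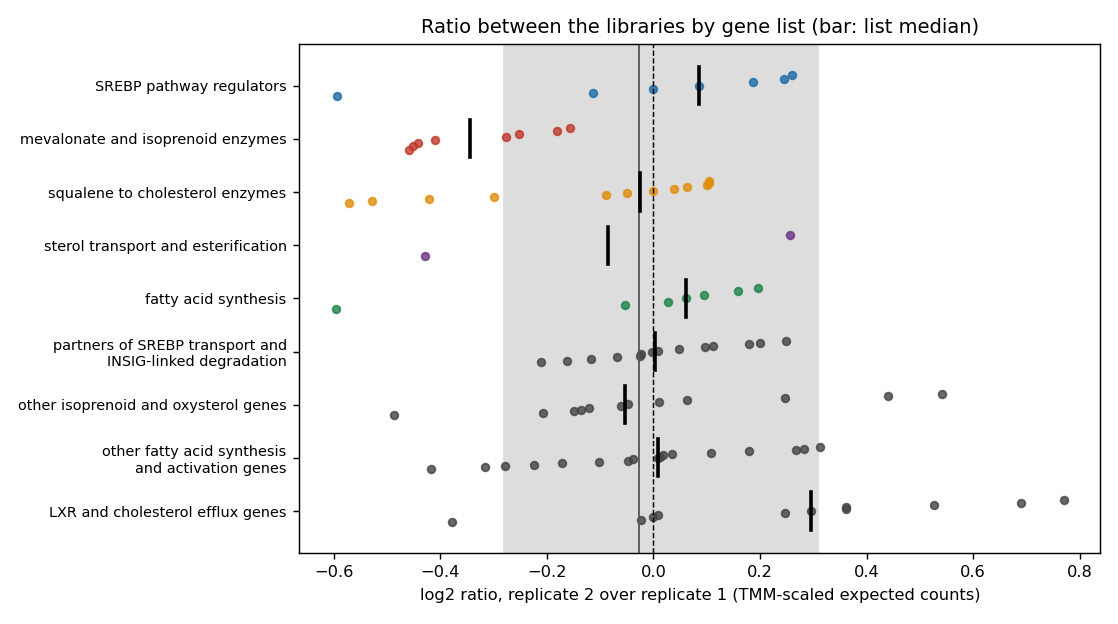
Log2 ratio of replicate 2 to replicate 1 for each gene with a mean of 100 counts or more, by list, with vertical bars for list medians; the grey band spans the 10th to the 90th percentile of 9686 protein-coding genes and the solid line their median. The mevalonate genes all lie left of 0, with a median of -0.34, and the LXR and efflux genes have a median of 0.30.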

How the data were processed

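The 2 libraries of the only group were made from ribosome-depleted total RNA. Per the deposited readme files, all tables used mm10 and annotation M21, and each library was quantified separately, first through alignments to the transcriptome and a second time straight from the reads. The sources used here do not name the aligner, the quantifiers or the strand setting. Expected counts, which need not be whole, and TPM were deposited by the authors, per the file headers. A deposited column of posterior SDs was read as a score of how uncertainly reads were assigned. The tables also hold 97 spike-in sequences (0.251% and 0.204% of counts) and 26248 numbered entries (0 and 0.950 counts), which were left out of library sizes.

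Members and lists were chosen with earlier results of these data known. A gene was called detected at a mean of 1 TPM. Expected counts were rounded and scaled by TMM in edgeR 4.0.16 (R 4.3.3) over genes averaging at least 10 counts. Ratios were formed after adding 0.5, where the mean was at least 100 counts. Alternatives were DESeq2 1.42.0 size factors, deposited TPM, the second quantification, TPM rescaled over nuclear protein-coding genes, other detection thresholds, and leaving out a library. The count at 1.5-fold and the shorter sterol element were added after the data were seen. Clopper-Pearson intervals (95%) cover counting error only, as sequenced fragments may share a molecule of origin. No p-value can be given for 1 group, and each error is an SD (n = 2). The division of Srebf1 transcripts into forms used their annotated start sites. All members are named, and of each other list the 4 of highest mean TPM and, where 5 or fewer, the genes below 1 TPM; any other gene is said to be chosen after its values were seen. Some genes that this rule names are not reported here. Ratios and intervals were tested on simulated counts whose only noise was counting error, so the test says nothing of variation between preparations. Other steps used Python 3.11.15 with pandas 2.3.3 and scipy 1.17.1.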

Additional observations from a re-analysis of the deposited data

How the results depend on the processing

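Levels depend on the quantification and on the scale. The members' median of 5.42 TPM became 2.56 TPM in the second quantification and 24.9 when TPM was rescaled over nuclear protein-coding genes, and ranged from 5.25 to 5.39 TPM with either library alone. The count of members detected was 30 in the second quantification, 36 after rescaling, 34 and 35 with either library alone, and 35 and 31 with thresholds of 0.5 and 2 TPM. No member passed 2-fold between libraries with TMM, DESeq2 size factors, TPM of the first quantification or scaled counts of the second. The median log2 ratio ranged from -0.14 to -0.01 over these settings. TPM of the second quantification was not among them, and by it Lss passed 2-fold, with 1.26 TPM in replicate 1 and 0.483 TPM in replicate 2. All 36 members pass the count filter, so leaving the filter out changes nothing for them. Members over 1.5-fold lower in replicate 2 numbered 2 with TMM and with DESeq2 size factors, 3 in the second quantification and 0 by deposited TPM. The median share of the leading transcript was 94.7%, 91.0% in the second quantification, and 92.6% to 96.8% with either library alone. The upstream share of Srebf1 was 90.4%, and 85.6% in the second quantification. The count of members with a sterol element was 1 with the full letters and 3 with the shorter core. The rescaled values follow from dividing every TPM of a library by its protein-coding share. The shorter core is contained in the full element, so its count cannot be smaller. Why the other values moved was not tested. The levels of all 36 members moved by more than 1 SD (n = 2) in the second quantification and after rescaling; leaving out 1 of 2 libraries cannot move a mean by 1 SD. No paired analysis was possible because there is 1 group. Elovl6, with 226 and 206 counts, is limited most by depth.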
